A study of Homo sapiens with 8 samples.

Results

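The genes described here are 10 transcription factor genes of hematopoietic stem and progenitor cells: MYC, MYB, GATA2, LMO2, ERG, FLI1, BCL11A, SOX4, RUNX2 and IKZF2. They were chosen by gene symbol from a table of 26364 symbols, and all 10 were present. The table holds TPM, an RNA level corrected for gene length and brought to an equal total per library, from RNA-seq of MV4-11, a human acute myeloid leukemia (AML) cell line with a FLT3 internal tandem duplication (FLT3-ITD) and an MLL-AF4 fusion. In every group the cells carried both lesions. Each of the 4 groups had 2 libraries. DMSO, the vehicle, was the control. TCP (tranylcypromine), an inhibitor of the histone demethylase LSD1, was given at 5 µM, palbociclib, an inhibitor of CDK4 and CDK6, at 0.5 µM, and the combination held both molecules at these doses. The labels give 4 days of treatment for each group. The study's account of this RNA-seq experiment likewise gives 4 days, for each single molecule and for their combination, while its general methods describe a day of palbociclib pretreatment followed by 3 days with TCP added. All values come from 1 cell line, and nothing in the labels says whether replicates were separate cultures, so p-values measure only the spread between these libraries.

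Progenitor transcription factors keep blood cells in an immature, dividing state, and their RNA usually falls as myeloid cells mature. MYC pairs with MAX on E-box DNA and drives genes of ribosome assembly and cell growth, and MYB binds enhancers of progenitor genes on which MLL-rearranged leukemia depends. GATA2, LMO2, ERG and FLI1 belong with TAL1, LYL1 and RUNX1 to a group of factors that sit together on stem cell enhancers. CDK4 and CDK6 inactivate the RB protein, and their inhibition keeps E2F target genes of DNA replication and mitosis low. LSD1 is recruited by GFI1 and GFI1B to silence myeloid genes.

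The promoters of MYB and SOX4 are shown because these members had the lowest and the highest log2 fold change of the combination against palbociclib alone. Of the 10 members, 7 had entries in a RefSeq promoter table (GRCh38.p14), with 17 windows in all. The 250 bases before the transcript start were each found by an exact match at 1 place on chromosome 6 of GRCh37 and lie outside annotated exons. The MYB window is chr6:135502196-135502445 on the plus strand, and capitals mark the single match to an E2F-type motif, TTTNGCG, which begins 61 bases before the start. The SOX4 window is chr6:21593732-21593981 on the plus strand, and capitals mark its 4 matches to CCAAT, counted on either strand.
MYB: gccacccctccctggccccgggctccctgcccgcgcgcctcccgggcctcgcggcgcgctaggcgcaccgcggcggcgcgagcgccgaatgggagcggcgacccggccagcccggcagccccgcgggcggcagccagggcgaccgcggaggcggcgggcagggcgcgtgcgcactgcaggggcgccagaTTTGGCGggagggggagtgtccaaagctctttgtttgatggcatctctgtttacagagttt
SOX4: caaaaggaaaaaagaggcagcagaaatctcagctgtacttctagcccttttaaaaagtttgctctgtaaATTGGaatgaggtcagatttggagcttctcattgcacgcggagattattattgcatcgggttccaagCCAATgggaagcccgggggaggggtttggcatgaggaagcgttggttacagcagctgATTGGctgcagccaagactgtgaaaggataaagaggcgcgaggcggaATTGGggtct
The MYB window is 75.6% G and C, and the SOX4 window 48.8%. Of 34788 distinct upstream windows of that length in the table, 4.31% held TTTNGCG and 32% held CCAAT, each searched on both strands. Among the 17 member windows, 1 held TTTNGCG, 7 held CCAAT and 0 held CACGTG, the E-box of MYC, which 6.31% of all windows held. The 7 windows with CCAAT belong to BCL11A, GATA2, SOX4 and ERG. Windows of the same gene can overlap, as some of ERG do, so the member windows are not independent promoters. The letters of these motifs do not contain one another, and a match describes sequence and not binding.

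Replicates of a group had a Pearson correlation of 0.983 to 0.991 across genes, and 13320 to 13640 symbols reached 1 TPM in a library. All 10 listed AML blast markers were at 1 TPM or more in every library, among them CD33 at 103 to 141 TPM and HOXA9 at 87.1 to 166 TPM. The 8 megakaryocytic and erythroid markers summed to 1.30 to 3.44 TPM, most of it ITGA2B at 1.11 to 3.20 TPM, and PF4 and HBB were listed at 0 in every library. Of the 7 lymphoid markers, CD3E and MS4A1 were at 0 in every library and NKG7 was at 168 to 311 TPM. MV4-11 cells of the study were kept on HS-5 stromal cells, a fibroblast-like line, although the growth protocol of these libraries does not mention it. The summed level of 15 stromal markers was 13.7 to 35.3 TPM in 7 libraries and 92.9 TPM in palbociclib replicate 2, where COL1A1 reached 22.2 TPM against 0.151 to 3.78 TPM elsewhere. COL1A1 was higher in replicate 2 of every group, at 0.185 and 1.23 TPM with DMSO and 0.151 and 1.79 with TCP. It was at 1.32 and 22.2 TPM with palbociclib and 2.29 and 3.78 with the combination. COL5A2 and COL6A3 did not keep this order in every group. TAGLN was at 8.30 to 17.7 TPM, and POSTN was at 0 in every library. The most abundant 10 symbols took 9.12% to 9.67% of all TPM with DMSO or TCP and 14.0% to 15.8% with palbociclib or the combination, and TPM of other genes are lowered by that share.

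In DMSO, MYC was the most abundant member, at 862 ± 3.84 TPM (SD, n = 2), and ranked 119 of 26364 symbols. MYB followed at 419 ± 15.4 TPM and LMO2 at 246 ± 17.2 TPM. FLI1, at 67.0 ± 2.83 TPM, and RUNX2, at 62.7 ± 1.53 TPM, were neighbours whose libraries did not overlap in DMSO but did overlap with TCP. SOX4 stood at 25.3 ± 0.258 TPM and BCL11A at 15.2 ± 1.18 TPM. GATA2, at 3.45 ± 1.145 TPM, and IKZF2, at 1.03 ± 0.213 TPM, were low. ERG was listed at 0 in both DMSO libraries and at 0.133 TPM at most elsewhere, so it was not tested. Of the ETS-family members, FLI1 was therefore the measurable one.

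**Figure D1:**
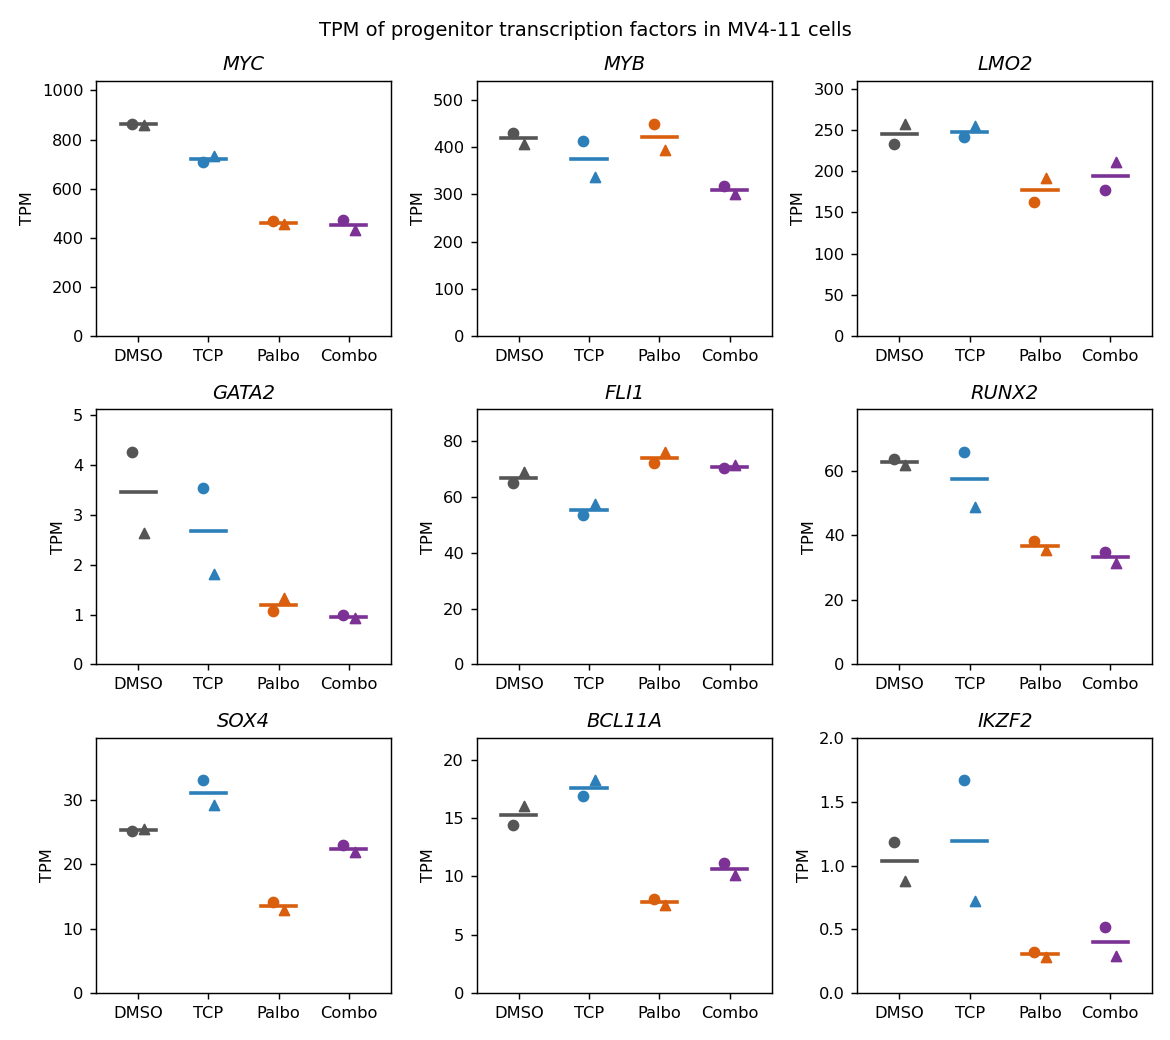
RNA level of 9 members in TPM (y axis, from 0, a different range in each panel) in the 4 groups (x axis). Circles are replicate 1, triangles replicate 2 and horizontal bars the mean of both. MYC stood at 860 and 865 TPM with DMSO and between 431 and 471 TPM in the 4 libraries with palbociclib. For MYB both combination libraries lay below both DMSO libraries, while the libraries with palbociclib alone overlapped those with DMSO.

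Changes are log2 fold changes of TPM + 1 with limma, adjusted over the 14151 symbols that reached 1 TPM in 2 or more libraries. DEG, by the thresholds of the study, are genes that changed by 1 or more on the log2 scale, in either direction, with an adjusted p below 0.01. Of the 9 tested members 0 were DEG in any comparison by limma. Among all tested genes, DEG made up 9.1% with palbociclib, 13.7% with the combination, 0.0565% with TCP, 0.502% in the combination against palbociclib, 12.2% in the combination against TCP and 0% in the interaction. In the text that follows, "rose" and "fell" mean an adjusted p below 0.05 with no fold minimum. IKZF2 was tested only because DMSO replicate 1 and TCP replicate 1 reached 1 TPM, so its decreases are in part set by the filter. The same holds for its share in the counts and medians of the members.

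With palbociclib alone, 6 of 9 tested members fell (MYC, GATA2, LMO2, BCL11A, SOX4 and RUNX2) and 0 rose, where 30.2% of all tested genes fell and 14.8% rose. The median log2 fold change was -0.75 over the members and -0.16 over all tested genes. With the combination, again 6 of 9 fell (MYC, MYB, GATA2, LMO2, BCL11A and RUNX2) and 0 rose, where 37.6% of all tested genes fell and 15.9% rose, with medians of -0.48 and -0.22. With TCP alone 0 of 9 passed by limma, where 0.431% of all tested genes did, and 3 members (MYC, FLI1 and SOX4) had an unadjusted p below 0.05, as 8.77% of all genes did. Palbociclib replicate 2 had the highest stromal marker sum. In each fit without 1 library, this one among them, the 6 members that fell with palbociclib kept their direction. Over these fits MYC ranged from -0.92 to -0.88 and LMO2 from -0.59 to -0.36. The count of members that fell depended on the library left out, as did the count of all tested genes that passed. With the combination the count was 3 without DMSO replicate 1 or without combination replicate 2, and 4 to 6 without any other library. Scaling each library by its median ratio moved the median of all genes to 0. It left 5 members that fell and 1 that rose with palbociclib, and 3 that fell and 1 that rose with the combination. In either direction, 6 of 9 members passed in that setting with palbociclib and 4 of 9 with the combination. Of 14151 tested genes, 5722 and 6633 passed in either direction, and their split by direction is not given here.

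The libraries of the compared groups did not overlap for 8 of 9 members with palbociclib, where 76.2% of all tested genes did not, and for 9 of 9 with the combination, where 80.2% did not. With TCP 4 of 9 did not overlap, and 34.7% of all tested genes. In the combination against palbociclib 6 of 9 did not overlap, and 53.7% of all tested genes, and in the combination against TCP 9 of 9, and 74.8%. IKZF2 is among the members without overlap with palbociclib, with the combination and in the combination against TCP. There its lower place is in part set by the filter. Member paragraphs below also set libraries of several groups against the rest, or all groups apart. The share of all tested genes with such an order was not counted, so these orders only describe the levels. In bulk RNA, fewer cells of a type and less RNA per cell cannot be told apart.

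**Figure D2:**
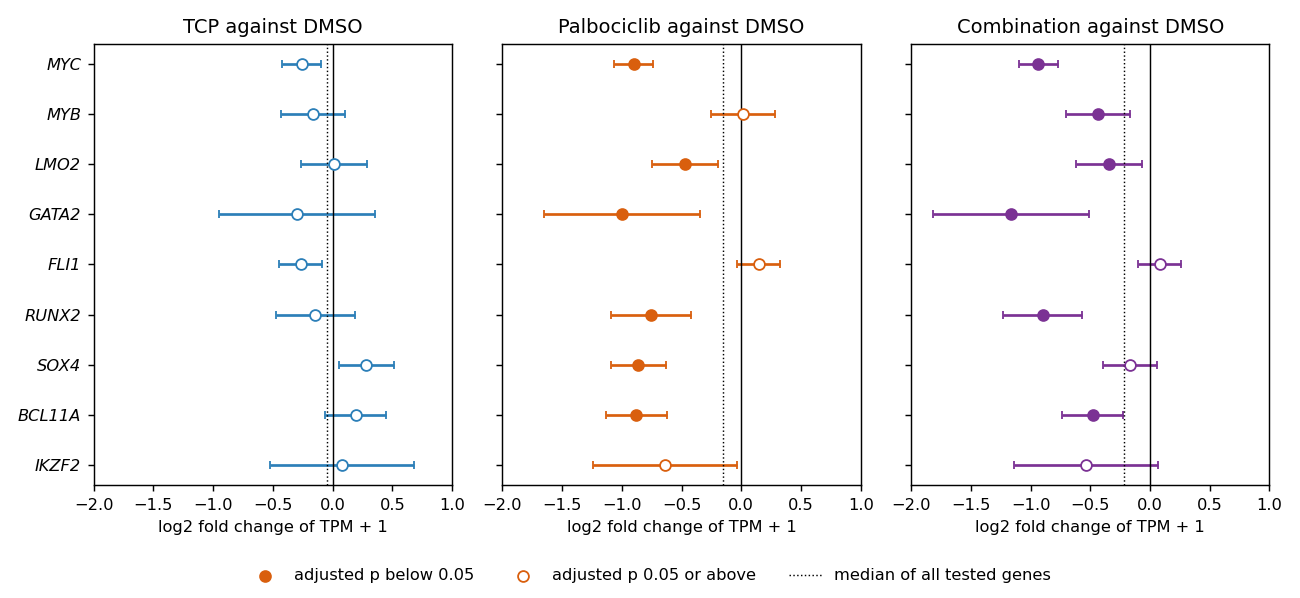
Log2 fold change of TPM + 1 against DMSO (x axis) of the 9 tested members (y axis) with TCP, palbociclib and the combination, with 95% confidence intervals as bars. Filled points have an adjusted p below 0.05, and the dotted line is the median of all tested genes. MYC fell by 0.90 with palbociclib and by 0.94 with the combination, and MYB stood at 0.01 with palbociclib and fell by 0.44 with the combination.

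MYC was measured at 865 and 860 TPM with DMSO, 709 and 732 with TCP, 467 and 456 with palbociclib, and 471 and 431 with the combination. All 4 libraries with palbociclib lay below the other 4, and the palbociclib and combination libraries overlapped each other. MYC fell by 0.90 with palbociclib (SE 0.07, adjusted p = 0.000191), to 0.536 of the DMSO level, and by 0.94 with the combination (SE 0.07, adjusted p = 9.1e-05). Relative to the median gene these were -0.74 and -0.72. With TCP alone the log2 fold change was -0.26 (95% confidence interval -0.42 to -0.10, adjusted p = 0.274), with TCP libraries below both DMSO libraries. The combination differed from palbociclib by -0.04 (95% confidence interval -0.20 to 0.13, adjusted p = 0.837). These MYC calls against DMSO held in all 16 alternatives of the processing at the same call rule. MYC (chr8:128747680-128755197, plus strand, GRCh37) shares 194 exon bases with CASC11 on the other strand, and the strand setting of the counting was not given.

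MYB was measured at 429 and 408 TPM with DMSO, 413 and 337 with TCP, 450 and 395 with palbociclib, and 317 and 300.4 with the combination. The combination libraries were below all 6 others, and the other groups overlapped. The log2 fold change with palbociclib was 0.01 (95% confidence interval -0.26 to 0.28, adjusted p = 0.949). MYB fell by 0.44 with the combination against DMSO (SE 0.11, adjusted p = 0.0154, or 0.00203 with the replicate number as a block). Against palbociclib the combination was at -0.45 (adjusted p = 0.0906, or 0.0171 with the block), and against TCP at -0.27 (adjusted p = 0.0837, or 0.0152 with the block). Neither passed without the block when all libraries were kept. The value against palbociclib also passed without either TCP replicate (lowest adjusted p = 0.0456), and that against TCP passed without TCP replicate 2 (adjusted p = 0.0185). The interaction of the molecules was -0.28 for MYB (95% confidence interval -0.66 to 0.10, adjusted p = 0.902). The fall against DMSO was lost without DMSO replicate 1 or either combination replicate, at -0.48 to -0.40 over the libraries left out (adjusted p up to 0.0875). After scaling to the median ratio it was -0.19 (adjusted p = 0.145).

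LMO2, the LIM-only adaptor that bridges GATA and basic helix-loop-helix factors without binding DNA itself, was measured at 234 and 258 TPM with DMSO, 241 and 255 with TCP, 163 and 192 with palbociclib, and 178 and 211 with the combination. The 4 libraries with palbociclib lay below the other 4, and replicate 1 was the lower in each group. LMO2 fell by 0.47 with palbociclib (SE 0.12, adjusted p = 0.0153) and by 0.34 with the combination (SE 0.12, adjusted p = 0.0430). With TCP alone it was at 0.01 (adjusted p = 0.984). The palbociclib call was lost without DMSO replicate 2 or palbociclib replicate 1 (adjusted p up to 0.0881), and the combination call without any 1 of the DMSO or TCP libraries or combination replicate 1 (adjusted p up to 0.231). After median-ratio scaling both calls were lost, with -0.30 (adjusted p = 0.117) for palbociclib and -0.10 (adjusted p = 0.577) for the combination.

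GATA2, a zinc finger factor of stem cells and early progenitors, was measured at 4.26 and 2.64 TPM with DMSO, 3.54 and 1.81 with TCP, 1.07 and 1.33 with palbociclib, and 0.983 and 0.934 with the combination. The 4 libraries with palbociclib were the lowest, and the DMSO and TCP libraries overlapped. The log2 fold change of GATA2 was -0.999 with palbociclib (SE 0.28, adjusted p = 0.0235) and -1.16 with the combination (SE 0.28, adjusted p = 0.0109). With the replicate block the combination value passed the DEG threshold (adjusted p = 0.00633). Over the libraries left out the values were -1.26 to -0.73 with palbociclib and -1.43 to -0.90 with the combination. The palbociclib call was lost without DMSO replicate 1 or either palbociclib replicate (adjusted p up to 0.130), and the combination call without DMSO replicate 1 or combination replicate 2 (adjusted p up to 0.0680). At these levels a fold change of TPM + 1 understates the ratio of the TPM. It shares 78 exon bases with the antisense gene GATA2-AS1.

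FLI1, the ETS factor of megakaryocytes and stem cells, was measured at 65 and 69.0 TPM with DMSO, 53.5 and 57.4 with TCP, 72.2 and 76.2 with palbociclib, and 70.5 and 71.3 with the combination. Of the 9 tested members it was the only 1 whose palbociclib and combination libraries all lay above DMSO, and its TCP libraries were the lowest. The log2 fold change was -0.27 with TCP (adjusted p = 0.307), 0.15 with palbociclib (adjusted p = 0.159) and 0.08 with the combination (adjusted p = 0.394). FLI1 rose by 0.35 in the combination against TCP (SE 0.08, adjusted p = 0.00804), a call lost without combination replicate 2 (adjusted p = 0.0525). After median-ratio scaling, FLI1 passed against DMSO at 0.32 with palbociclib (adjusted p = 0.0274) and 0.32 with the combination (adjusted p = 0.0224).

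In this and the lists that follow, names beyond the 3 largest changes of a list were added after their values were seen. Beside the counts of each list, 30.2% of all tested genes fell and 14.8% rose with palbociclib, and 37.6% and 15.9% with the combination. The medians over all tested genes were -0.16 and -0.22. The lists are small, so a count near these shares describes the genes named and not the list. Among the partners of LMO2 and GATA2, LYL1, TCF3, TCF12 and CBFB fell with palbociclib and CBFA2T3 rose, which is 4 and 1 of 9 tested genes. With the combination SSBP3 fell too, which gave 5 and 1. Medians were -0.41 and -0.53, and by limma 0 were DEG. The 3 with the largest combination values were LYL1 at -0.81 (adjusted p = 0.0166), TCF12 at -0.79 (adjusted p = 0.00355) and CBFB, the shared partner of RUNX proteins, at -0.74 (adjusted p = 0.000373). TAL1 was at 0.226 TPM or less and was not tested. Scaled to the median ratio, 2 fell and 2 rose with the combination, where 6633 of 14151 tested genes passed in either direction.

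RUNX2, the Runt-domain factor best known from bone and also present in some AML, was measured at 63.8 and 61.7 TPM with DMSO, 65.8 and 48.8 with TCP, 38.2 and 35.4 with palbociclib, and 34.9 and 31.5 with the combination. The 4 libraries with palbociclib did not overlap the other 4, and the combination lay just under palbociclib alone. RUNX2 fell by 0.75 with palbociclib (SE 0.14, adjusted p = 0.00519) and by 0.90 with the combination (SE 0.14, adjusted p = 0.00184). Both calls held in all 16 alternatives. The difference of the combination from palbociclib was -0.14 (95% confidence interval -0.48 to 0.19, adjusted p = 0.656). In palbociclib replicate 2, with the highest stromal marker sum, RUNX2 was at 35.4 TPM, and in replicate 1 at 38.2 TPM. The part of stromal RNA in the RUNX2 levels was not tested.

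SOX4, an HMG-box factor of progenitors, was measured at 25.1 and 25.5 TPM with DMSO, 33.0 and 29.1 with TCP, 14.1 and 12.9 with palbociclib, and 22.9 and 21.8 with the combination. The groups did not overlap: TCP was the highest, then DMSO, the combination and palbociclib. SOX4 fell by 0.86 with palbociclib (SE 0.10, adjusted p = 0.000697), to 0.551 of DMSO, and rose by 0.69 in the combination against palbociclib (SE 0.10, adjusted p = 0.0164). It was the only member to pass in that comparison, where 3.49% of all tested genes passed and 2.05% rose. The SOX4 call was lost when only the compared groups were fitted, and when either replicate of palbociclib or of the combination was left out, with values of 0.63 to 0.75 and an adjusted p of up to 0.133. Against DMSO the combination was at -0.17 (95% confidence interval -0.40 to 0.06, adjusted p = 0.184), which turned to 0.05 by quantile normalization and to 0.07 by median-ratio scaling. With TCP alone the value was 0.28 (adjusted p = 0.427). The interaction was 0.41 (unadjusted p = 0.0204, adjusted p = 0.656), the only member interaction with an unadjusted p below 0.05, as 6.39% of all tested genes had.

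BCL11A, a zinc finger repressor of fetal globin that also acts in lymphoid and stem cells, followed the order of SOX4. It was measured at 14.4 and 16.1 TPM with DMSO, 16.9 and 18.2 with TCP, 8.06 and 7.56 with palbociclib, and 11.1 and 10.1 with the combination. No 2 groups overlapped. BCL11A fell by 0.88 with palbociclib (SE 0.11, adjusted p = 0.000971) and by 0.48 with the combination (SE 0.11, adjusted p = 0.00847). Both combination libraries lay above both palbociclib libraries, and the log2 fold change of 0.40 between these groups (95% confidence interval 0.14 to 0.65) did not pass (adjusted p = 0.111). Against DMSO the fall with the combination was lost without DMSO replicate 2 or combination replicate 2 (adjusted p up to 0.0610) and after median-ratio scaling, at -0.25 (adjusted p = 0.0963).

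IKZF2, an Ikaros-family factor called Helios, was measured at 1.18 and 0.882 TPM with DMSO, 1.67 and 0.720 with TCP, 0.320 and 0.285 with palbociclib, and 0.518 and 0.287 with the combination. The 4 libraries with palbociclib were below the other 4. Its log2 fold change was -0.64 with palbociclib (adjusted p = 0.0795, or 0.0413 with the block) and -0.54 with the combination (adjusted p = 0.116). ERG was at 0 and 0 with DMSO, 0.0333 and 0.0712 with TCP, 0.0669 and 0.133 with palbociclib, and 0 and 0.0416 with the combination.

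**Figure D3:**
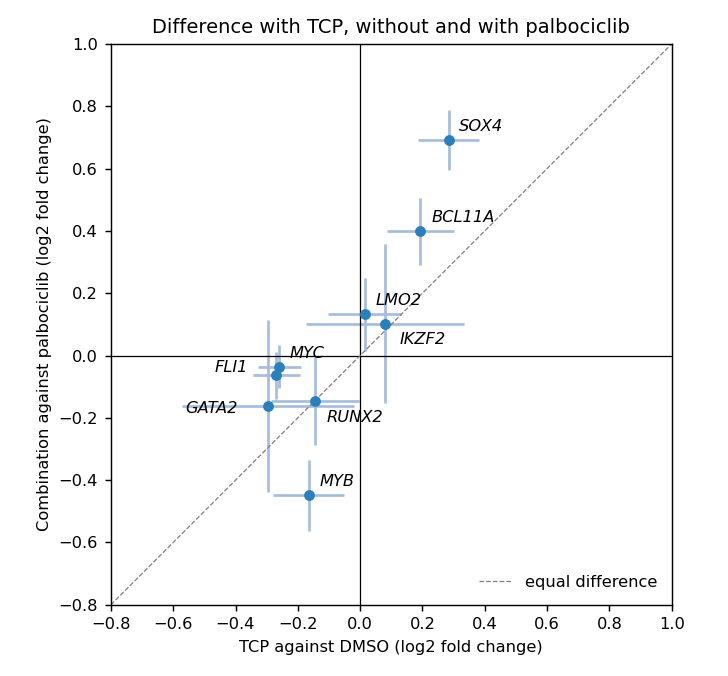
Log2 fold change of TPM + 1 for TCP against DMSO (x axis) and for the combination against palbociclib (y axis) of the 9 tested members, with bars of 1 SE and a dashed line of equal difference. SOX4 lay at 0.28 and 0.69, MYB at -0.17 and -0.45, and MYC at -0.26 and -0.04, and only the SOX4 value on the y axis passed at an adjusted p below 0.05.

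Set against TCP, the combination fell for 6 of 9 tested members and rose for FLI1, where 33.8% of all tested genes fell and 16.5% rose. The members that fell were MYC by 0.68, GATA2 by 0.87, LMO2 by 0.36, BCL11A by 0.67, SOX4 by 0.45 and RUNX2 by 0.76, with adjusted p from 0.000345 to 0.0397. The calls for MYC, BCL11A and RUNX2 held in all 16 alternatives, that for SOX4 was lost without combination replicate 2 (adjusted p = 0.0549), and those for GATA2 and LMO2 held in 3 of 8 fits that left out a library. MYB, at -0.27, and IKZF2, at -0.62 (adjusted p = 0.0822, or 0.0437 with the block), passed with the block. In the interaction of the molecules 0 of 9 members and 0 of 14151 tested genes passed by limma. With 2 libraries a group, an exact permutation test of 2 groups cannot go below p = 0.333.

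Genes that MYC is known to activate, for nucleoli, ribosome assembly and growth, fell in the same treatments. Of 25 tested target genes, 23 fell and 0 rose with palbociclib, all but RRP12 and BYSL. With the combination 23 fell and 0 rose, all but RRP12 and NOP2, with medians of -0.79 and -0.87 beside -0.16 and -0.22 over all genes. Of these 8 were DEG with palbociclib and 10 with the combination. CAD, a pyrimidine synthesis enzyme, was at 63.1 and 78.8 TPM with DMSO, 29.0 and 29.1 with palbociclib, and 25.7 and 25 with the combination, a fall by 1.44 (adjusted p = 0.000294). LDHA, lactate dehydrogenase A, fell by 1.42 (adjusted p = 0.000170), and FBL, the nucleolar protein fibrillarin, fell by 1.42 (adjusted p = 5.61e-05). With TCP alone the list median was 0.08 with 0 passing, and in the combination against palbociclib 0 passed. After median-ratio scaling 19 fell with each of palbociclib and the combination, and without palbociclib replicate 2 the counts were 20 and 22.

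Other members of the MYC network compete with MYC for MAX or act beside it. Of 11 tested, 4 rose (MXD1, MXD3, MXD4 and MLXIP) and 1 fell (MXI1) with palbociclib, with a median of -0.08. With the combination 4 rose (MXD1, MXD4, MLXIP and MYCL) and 2 fell (MAX and MXI1), with a median of -0.03. Of all tested genes, 14.8% rose and 30.2% fell with palbociclib, and 15.9% and 37.6% with the combination. MYCL, a MYC paralogue, was at 3.02 and 2.71 TPM with DMSO, 5.17 and 5.48 with TCP, 4.72 and 3.37 with palbociclib, and 15.3 and 12.6 with the combination. It rose by 1.95 with the combination against DMSO (adjusted p = 0.000157) and by 1.57 against palbociclib (adjusted p = 0.00733), a DEG in both. MXD1 and MXD4, which pair with MAX to repress MYC sites, rose by 1.59 (adjusted p = 0.00170) and 1.52 (adjusted p = 0.000104) with the combination. MYCN was at 0.0335 TPM at most and was not tested.

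Genes known as MYB targets moved both ways. Of 11 tested, 5 rose with palbociclib and with the combination: MPO, ELANE, PRTN3 and AZU1, which code for proteins of primary granules, and ADA, adenosine deaminase. With palbociclib 3 fell (BCL2, CCNA1 and CCNB1), and with the combination 3 (BCL2, CCNB1 and CDK6), with medians of -0.05 and 0.06. Of all tested genes, 14.8% rose and 30.2% fell with palbociclib, and 15.9% and 37.6% with the combination. BCL2, the antiapoptotic gene, fell by 1.91 with the combination (adjusted p = 0.000288), at 45.5 and 45.9 TPM with DMSO and 13.1 and 9.93 TPM with the combination. CCNB1, a mitotic cyclin, fell by 1.44 (adjusted p = 0.000134). AZU1, an azurophil granule protein, rose by 1.73 (adjusted p = 2.76e-05). In the combination against palbociclib the 3 granule genes ELANE, PRTN3 and AZU1 fell and 0 targets rose, and with TCP alone 2 fell, ELANE and PRTN3. In these comparisons 3.49% and 0.431% of all tested genes passed in either direction. CD34 was at 0.0387 TPM at most and was not tested.

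Of 17 paralogues of the members 10 were tested. With palbociclib 5 fell (MYBL2, LMO4, RUNX3, IKZF4 and IKZF5) and 1 rose (ETS1), with a median of -0.37. With the combination 5 fell (MYBL1, MYBL2, LMO4, IKZF4 and IKZF5) and 1 rose (ETS1), with a median of -0.47. Of all tested genes, 30.2% fell and 14.8% rose with palbociclib, and 37.6% and 15.9% with the combination. MYBL2, the cell cycle MYB gene, was the DEG of the list, at 123 and 149 TPM with DMSO, 109 and 149 with TCP, 70.0 and 73.6 with palbociclib, and 38.2 and 47.6 with the combination. It fell by 0.90 with palbociclib (adjusted p = 0.00606) and by 1.64 with the combination (adjusted p = 0.000363), where MYB itself fell by 0.44. IKZF5 fell by 0.90 (adjusted p = 0.00166) and IKZF4 by 0.71 (adjusted p = 0.00218). GATA1, GATA3, LMO1, FEV, BCL11B, SOX11 and IKZF3 were below 1 TPM in every library. Of 7 other tested progenitor regulators, 3 rose (HHEX, NFE2 and ID1) and 3 fell (MEF2C, TCF4 and ID2) with palbociclib. With the combination 2 rose (NFE2 and ID1) and 3 fell (MEF2C, TCF4 and ID2). The shares of all tested genes given for the paralogues apply here too. NFE2 rose by 1.67 (adjusted p = 0.00223) and ID1 by 1.29 (adjusted p = 0.00462), and MEF2C fell by 1.09 (adjusted p = 0.00123). MECOM, HLF, PRDM16 and ID3 were below 1 TPM in every library.

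Genes of S phase, G2 and mitosis moved in the libraries in which MYC was low. Their summed level, over 20 genes, was 3459 to 4336 TPM with DMSO or TCP, 1885 to 1914 TPM with palbociclib and 1355 to 1453 TPM with the combination. All 20 fell with palbociclib and all 20 with the combination, with medians of -1.16 and -1.64. In the combination against palbociclib 5 fell (MCM6, RRM2, CCNA2, CCNB2 and CDK1), where 3.49% of all tested genes passed in either direction. Of 12 myeloid differentiation factors, 6 rose with palbociclib and 6 with the combination, and EGR1 fell in both, with medians of 0.76 and 0.89. The part of cell cycle state in the levels of the members was not tested.

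By Pearson correlation of log2(TPM + 1) over the 8 libraries, the genes most like MYC among 11101 compared were MSL2 (0.998), FAM60A (0.995) and LOC648987 (0.994). MSL2 averaged 60.7 TPM with DMSO, 51.3 with TCP, 34.4 with palbociclib and 32.9 with the combination. For MYB they were PSMA3-AS1 (0.993), SAYSD1 (0.983) and RCOR3 (0.979), and RCOR3 averaged 24.2, 21.1, 23.5 and 18.8 TPM in the same order. The 8 points share 4 treatments, so these values describe a pattern over groups.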

How the data were processed

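RNA was sequenced from 8 libraries of MV4-11 cells, prepared with a stranded mRNA kit. The authors mapped reads to hg19 (GRCh37) with subread-align, obtained gene counts with featureCounts 1.6.4 and deposited TPM, a table without counts, so the depth is unknown. The submitters' processing notes also name SAMtools 1.9 and DESeq2 1.26.0. Annotation, gene lengths and strand setting are not given in the sources used here, so reads of overlapping or antisense genes cannot be told apart.

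Groups and replicate numbers were taken from the labels. From the TPM, log2(TPM + 1) was computed for the 14151 of 26364 symbols that reached 1 TPM in 2 or more libraries, and fitted with limma 3.58.1 (R 4.3.3), giving each group its own coefficient in 1 model of the 8 libraries (4 residual degrees of freedom), with a mean-variance trend and Benjamini-Hochberg adjustment over all tested symbols. The comparisons were each treatment against DMSO, the combination against each molecule, and the interaction. A DEG changed by 1 or more on the log2 scale with an adjusted p below 0.01. The fit was checked on simulated data. The main fit held no term for the replicate number, so its p-values do not use a pairing of the libraries. Same-numbered libraries of different groups deviated together (correlations of 0.169 to 0.491 across genes for the 6 pairs of groups). On these values alone, a fit with the replicate number as a block was added as an alternative.

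The 10 members, the gene lists and the alternatives were chosen with earlier results of these data known, and the lists were recalled from general knowledge. Named genes are all members, the 3 genes most like MYC and MYB, and per list the 3 with the largest absolute change under the combination among those that passed, plus untested genes below 1 TPM. Other list genes, and GFI1B, are named beyond this rule and were chosen after their values were seen. Values of some list genes are not reported here. Fold changes on log2(TPM + 1) understate changes of low genes. Coordinates are from GENCODE lifted to GRCh37, and promoter windows from RefSeq (GRCh38.p14).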

Additional observations from a re-analysis of the deposited data

How the results depend on the processing

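Of the 9 tested members, 0 were DEG in each comparison. With the combination 1 was (GATA2) under a pseudocount of 0.1 (-1.71, adjusted p = 0.00858), quantile normalization (-1.13, adjusted p = 0.00686) and the replicate block (-1.16, adjusted p = 0.00633), and with 1 library left out the count was 0 to 1, with GATA2 called without either TCP replicate. Among all 14151 tested genes, DEG with the combination numbered 2185 under that pseudocount, 1789 by quantile normalization and 2038 with the block, beside 1937 in the main fit. Those with an adjusted p below 0.05 numbered 6369 with palbociclib, 7581 with the combination, 494 for the combination against palbociclib and 7105 against TCP. With the replicate block 7849, 8711, 1255 and 8417 did. Among the members the counts by this rule, with no fold minimum, were 6 with palbociclib, 6 with the combination, 1 for the combination against palbociclib and 7 against TCP. With the replicate block these counts were 7, 6, 2 and 9, and with 1 library left out 4 to 7, 3 to 6, 0 to 2 and 4 to 8.

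Signs turned in 7 cases other than those that left out a library: for SOX4 with the combination against DMSO (0.0470 by quantile normalization, 0.0680 by median-ratio scaling), for MYC (0.0326) and FLI1 (0.00463) in the combination against palbociclib by median-ratio scaling, and in the interaction for RUNX2 (0.0214 by quantile normalization, 0.0218 by median-ratio scaling) and IKZF2 (-0.0115 by quantile normalization). The main values of these were between -0.17 and 0.02. Both scalings move the median of all genes with the combination from -0.22 to -0.07 and 0. Leaving out 1 library gave these ranges where the sign turned. For TCP against DMSO they were -0.643 to 0.0502 for GATA2, -0.0570 to 0.0852 for LMO2, -0.356 to 0.0687 for RUNX2 and -0.237 to 0.397 for IKZF2. For palbociclib against DMSO MYB ranged from -0.0838 to 0.106. For the combination against palbociclib MYC ranged from -0.1000 to 0.0275 and IKZF2 from -0.0168 to 0.222. In the interaction the ranges were -0.213 to 0.480 for GATA2, -0.00477 to 0.240 for LMO2, -0.214 to 0.211 for RUNX2 and -0.295 to 0.340 for IKZF2. None of these had passed a threshold, and the cause was not tested. In 844 other cases a member kept its direction and, as in the main fit, was not called. Since 0 members were DEG in the main fit, this number does not describe the calls at an adjusted p below 0.05. Several of those calls were lost in some alternatives. Over all genes, those with an adjusted p below 0.05 numbered 61 for TCP against DMSO and 494 for the combination against palbociclib, 197 and 1255 with the replicate block, 0 and 269 with only the compared groups fitted, and 4 to 32 and 20 to 568 with 1 library left out. TPM hold no read counts, so the precision behind low members such as GATA2, IKZF2 and ERG is unknown.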

Other observations

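The replicates differed most with TCP. Replicate 1 was above replicate 2 by 0.69 for GATA2, 0.63 for IKZF2, 0.42 for RUNX2 and 0.29 for MYB on the log2(TPM + 1) scale. It was the higher for 5 of 9 tested members and for 57.2% of all tested genes. MYC, LMO2, FLI1 and BCL11A went the other way, by -0.05 for MYC to -0.11 for BCL11A. The median absolute difference over the 9 tested members was 0.17 with TCP against 0.09 with DMSO. Over all tested genes these medians were 0.20 and 0.13. GFI1B, a repressor that recruits LSD1, was at 4.98 TPM in TCP replicate 1 and 0.761 TPM in TCP replicate 2, at 0.691 and 0.272 TPM with DMSO, and at 0.0441 TPM or less in the 4 libraries with palbociclib. It reached 1 TPM in a single library and was not tested.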
